A study of Mus musculus with 6 samples.

Results

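EML cells, a mouse blood progenitor line from bone marrow that is kept undifferentiated in stem cell factor, were compared with and without knockdown of KAI1 by sequencing of RNA. The gene Cd82 codes for KAI1, also called CD82. It is a tetraspanin, a small membrane protein that crosses the membrane several times and gathers integrins, growth factor receptors and other membrane proteins into patches at the cell surface. It is best known as a suppressor of metastasis, and in blood it is known on the most quiescent stem cells. Mast cells and basophils, which EML cells can form, store proteases, histamine and serotonin in granules and release cytokines such as interleukin 4.

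The comparison used 4 of the 6 libraries of the series: 2 of the knockdown control (a wildtype control) and 2 of the KAI1 knockdown. The labels name the strain BDF1, the tissue bone marrow and the cell type basophil for both groups. All cells grew in IMDM with 20% serum and 200 ng/ml stem cell factor. How KAI1 was knocked down, what the control cells carried, whether each line was 1 clone and whether the numbered replicates were separate cultures are not given in the sources used here, so a p-value here measures the spread between libraries that may be technical repeats. Of 23146 transcript entries in the tables, 10113 had a mean of at least 1 RPKM (reads relative to transcript length and to all mapped reads) over the 4 libraries. Of these, 145 entries (small RNAs and 1 ribosomal RNA) were set apart, which left 9968 entries that are called genes here. Steps in the lowest values put the depth at about 19100000 and 9930000 reads in control replicates 1 and 2 and 12900000 and 19500000 in knockdown replicates 1 and 2. At those depths, 1 RPKM over a transcript of 2 kb rests on about 38.2, 19.9, 25.7 and 39.1 reads.

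Cd82 (chromosome 2, 93259259 to 93310031 in mm9) was measured at 43.9 and 13.8 RPKM in control replicates 1 and 2 and at 7.65 and 6.91 RPKM in knockdown replicates 1 and 2. The knockdown libraries were the lowest 2 of the 4, and the controls lay further from each other than control replicate 2 lay from the knockdown. The knockdown mean differed by -2.44 against control replicate 1 and -0.84 against control replicate 2, on the scale of log2(RPKM + 1), on which all differences here are given. The group difference was -1.64 ± 0.58 (SE), with an adjusted p of 0.830 by limma. An exact two-sided permutation test over the 4 libraries gave p = 0.333, the smallest that 2 against 2 can give. Without control replicate 2, the difference from control replicate 1 had an adjusted p of 0.0181 by limma. Without control replicate 1, it had an adjusted p of 0.406.

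The controls stood far apart, so levels are given library by library and differences against each control on its own. Control replicates 1 and 2 were at least 2-fold apart in RPKM + 1 for 2068 of 9968 genes, and the knockdown libraries for 184. Control replicate 2 was that far from knockdown replicates 1 and 2 for 224 and 447 genes, and control replicate 1 for 1817 and 1802. Markers of some blood cell types parted control replicate 1 from the other libraries as well. The summed level of 10 mast cell and basophil markers was 77330 and 16200.0 RPKM in control replicates 1 and 2 and 8515 and 7382 RPKM in the knockdown libraries. A set of 6 erythroid markers summed to 76.5 RPKM in control replicate 1, against 2723 RPKM in control replicate 2 and 2257 and 2604 RPKM in the knockdown libraries. The progenitor markers Cd34, Flt3, Kit and Gata2 summed to 672.9 and 239.2 RPKM for the controls, against 274.6 and 316.2 RPKM for the knockdown, with Kit and Gata2 highest in control replicate 1. Within that set Cd34 went the other way, at 0.859 RPKM in control replicate 1 and between 64.7 and 77.9 RPKM in the other libraries. A sum of 4 neutrophil and monocyte markers was alike across the libraries, at 1088 and 1183 RPKM as control, against 1195 and 906.8 RPKM after knockdown. Within it, Mpo and Ctsg went opposite ways in control replicate 1. Mpo was at 7.84 and 538 RPKM as control and 750 and 470 RPKM after knockdown. Ctsg was at 1080 and 643 RPKM as control and 444 and 434 RPKM after knockdown. The other members were at no more than 3.04 RPKM. The sum of the mast cell markers was thus highest and that of the erythroid markers lowest in control replicate 1, though Mcpt8 was highest in control replicate 2 and Epor in control replicate 1, and the labelled basophil genes were present beside erythroid ones in the other 3. The part of this split in the results below was not tested. In RNA of whole cultures, fewer cells of a type and less RNA per cell cannot be told apart.

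With both controls in the fit, limma called 3 of 10113 entries (0.0297%) at an adjusted p under 0.05, all of them small RNAs, and 0 of 9968 genes (0.0% in each direction), and the smallest adjusted p of any gene was 0.521. At an unadjusted p under 0.05 it found 177 genes higher (1.78%) and 143 lower (1.43%) in the knockdown. Against control replicate 1 alone it called 399 genes higher (4.0%) and 608 lower (6.1%), a fit in which that lone library is taken to vary as the knockdown libraries do, and against control replicate 2 alone it called none. Both knockdown libraries were at least 2-fold from control replicate 1 for 572 genes upward (5.74%) and 823 downward (8.26%), and from control replicate 2 for 44 (0.441%) and 58 (0.582%). The counts below therefore describe where libraries lie. Both knockdown libraries lay above both controls for 2158 genes (21.6%) and below both for 1696 (17.0%). They did so by at least 2-fold in RPKM + 1 for 14 genes upward (0.14%) and 24 downward (0.241%). The difference had the same sign against both controls for 5449 genes (54.7%). Its standard deviation over genes was 0.96 against control replicate 1 and 0.43 against control replicate 2.

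**Figure D1:**
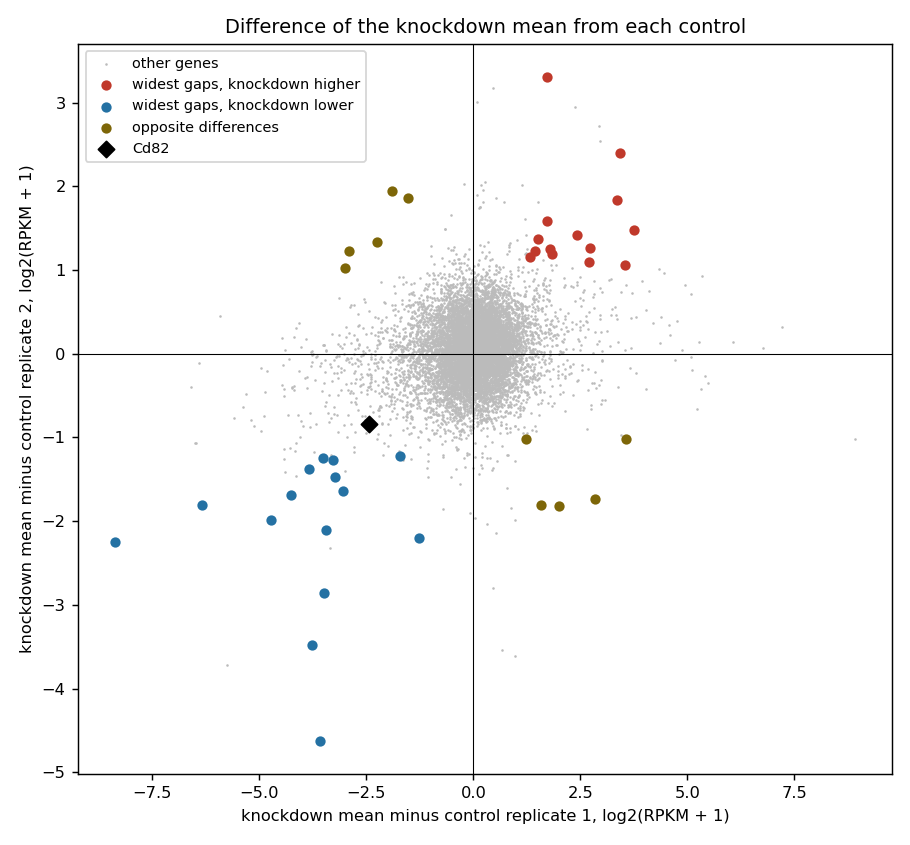
Each point is 1 of 9968 genes, placed by the knockdown mean minus control replicate 1 (x axis) and minus control replicate 2 (y axis) in log2(RPKM + 1). The cloud is wider along x (standard deviation 0.96) than along y (0.43), the genes with the widest gaps lie in the upper right and lower left, and Cd82 lies at -2.44 and -0.84.

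Among the genes with the widest gaps upward was Islr (chromosome 9, 58004071 to 58007028 in mm9), which codes for a secreted protein with leucine-rich repeats and an immunoglobulin domain. It was listed at 0 in control replicate 1, at 1.04 RPKM in control replicate 2 and at 9.47 and 10.05 RPKM in knockdown replicates 1 and 2. All pairs of values below are likewise in replicate order. Its difference was 3.43 against control replicate 1 and 2.40 against control replicate 2, with an adjusted p of 0.830 by limma. Islr is known from mesenchymal cells, and the defining stromal markers Col1a1, Col1a2, Col3a1 and Dcn summed to 0.0648 and 0 RPKM for the controls, against 0.0146 and 0.0106 RPKM for the knockdown. Of 12 stromal genes listed, only Islr, Vim and Pdgfrb passed the filter. Vim and Pdgfrb did not separate the groups.

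Of 9 megakaryocyte genes past the filter, 3 lay above both controls and 1 below. Gp9, a subunit of a platelet receptor, stood at 0.959 and 26.9 RPKM as control and 28.3 and 43.6 RPKM after knockdown. The platelet chemokine gene Ppbp stood at 550.4 and 31.1 RPKM without and 21.5 and 26.5 RPKM with the knockdown. The summed level of Pf4, Itga2b and Gp9 was 1797 and 873.8 RPKM for the controls, against 681.2 and 1211 RPKM for the knockdown, so those markers overlapped between groups.

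Further genes above both controls by about 2-fold or more came from several families. Rbpms (chromosome 8, 34893116 to 35040313 in mm9), an RNA-binding protein gene, was at 0 and 3.88 RPKM as control and 12.4 and 12.8 RPKM after knockdown. Ifitm3, an interferon-induced membrane protein that blocks virus entry, was at 0.0299 and 1.97 RPKM without and 13.4 and 6.81 RPKM with the knockdown. For both genes control replicate 1 was at or near 0 and control replicate 2 lay between it and the knockdown. Chpf2 (chromosome 5, 24092568 to 24098304 in mm9), which helps to build chondroitin chains, was at 25.1 and 7.72 RPKM as control and 60.5 and 119 RPKM after knockdown. Here the order of the controls was turned around, and the difference was 1.72 against control replicate 1 and 3.30 against control replicate 2, larger against the second control. Dntt, the template-independent DNA polymerase of early lymphoid cells, was at 0 and 1.75 RPKM without and 5.95 and 5.25 RPKM with the knockdown. Of lymphoid markers, Cd3e and Rag1 were listed at 0 in all 4 libraries, and Cd79a was listed at 0 in all but knockdown replicate 2, where it was at 0.508 RPKM. Over the lymphoid list 1 of 4 members past the filter lay above both controls and 1 below.

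Zfp385a, a zinc finger gene, stood at 1.79 and 4.57 RPKM as control and 13.9 and 13.8 RPKM after knockdown. Pemt, which makes phosphatidylcholine from phosphatidylethanolamine by methylation, stood at 5.08 and 6.08 RPKM without and 14.1 and 17.3 RPKM with the knockdown. For Pemt the controls were close to each other, and its differences were 1.45 and 1.23 against control replicates 1 and 2. Trpv4, a cation channel gene, was low throughout, at 0.257 and 0.402 RPKM as control and 1.96 and 2.3 RPKM after knockdown, and also differed alike from both controls. The myosin light chain gene Myl4 stood at 0.143 and 2.48 RPKM without and 6.48 and 6.36 RPKM with the knockdown. Mdga1, a membrane-anchored immunoglobulin protein gene, stood at 0.998 and 10.2 RPKM as control and 23.6 and 20.9 RPKM after knockdown. In Myl4 and Mdga1 the difference was larger against control replicate 1, at 2.70 and 3.54, than against control replicate 2, at 1.09 and 1.06. Of the genes with the widest gaps upward, the histone genes H2bc1, H3c7, H4c3 and H3c11 are given with the histones. The adjusted p by limma was 0.830 for each of the 14 genes from Islr to Mdga1, histones included.

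Downward, the widest gap was that of Eno1b, an enolase gene nearly identical to Eno1, between which reads could be split. Eno1b was at 154 and 318 RPKM without and 8.61 and 16.5 RPKM with the knockdown, and Eno1 at 219 and 458 RPKM as control and 477 and 919 RPKM after knockdown. Eno1b was lower and Eno1 higher in both knockdown libraries than in either control, so the pair is uncertain as 2 separate measurements.

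Pdia4 (chromosome 6, 47746140 to 47763511 in mm9), a disulfide isomerase that folds proteins in the endoplasmic reticulum, was at 252 and 162 RPKM without and 18.9 and 24.5 RPKM with the knockdown. The knockdown libraries lay close together, far below both controls. Its difference was -3.49 against control replicate 1 and -2.85 against control replicate 2, and the group difference was -3.17 ± 0.34 (SE) with an adjusted p of 0.521 by limma. Since many folding genes carry a CCAAT box or the ER stress element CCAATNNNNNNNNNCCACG before their start, the 250 bases before the start of Pdia4 are shown from RefSeq (GRCm38.p6, chr6:47813513-47813762, minus strand), with CCAAT on either strand in capitals.
Pdia4: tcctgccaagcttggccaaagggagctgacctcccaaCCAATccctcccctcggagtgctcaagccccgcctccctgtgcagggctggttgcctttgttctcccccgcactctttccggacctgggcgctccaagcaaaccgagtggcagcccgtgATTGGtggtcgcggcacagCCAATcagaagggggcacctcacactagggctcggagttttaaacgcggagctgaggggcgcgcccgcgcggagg
The window holds 3 CCAAT boxes, the nearest starting 75 bases before the gene, and no exact ER stress element. Over 32851 windows of the same length in the table, 33.8% held CCAAT and 0.113% the full element, of which CCAAT is a part. Among 22 windows of 18 of the 21 ER chaperone and disulfide isomerase genes past the filter, 15 (68.2%) held CCAAT and 7 (31.8%) the full element. A match is a description and not a measured site.

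Of the 21 folding genes past the filter, Pdia4 included, 3 lay above both controls and 6 below (28.6%, against 17.0% of all genes), with a median of 0.029 against control replicate 1 and -0.17 against control replicate 2. Ero1a, the oxidase that recharges disulfide isomerases, was at 136 and 73.3 RPKM as control and 26.8 and 41.9 RPKM after knockdown. Dnajb9, a cochaperone, was at 2.66 and 3.2 RPKM without and 1.21 and 1.04 RPKM with the knockdown. Hspa5, the main chaperone of the compartment, overlapped between groups at 71.9 and 105 RPKM as control and 68.5 and 78.6 RPKM after knockdown.

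Several genes with wide gaps downward belong to mast cells and basophils or to other white blood cells, and for most of them the first control was far above the second. Clec10a, a lectin of macrophages and dendritic cells, was at 553 and 6.99 RPKM without and 0.75 and 0.609 RPKM with the knockdown. Tph1, the first enzyme of serotonin synthesis, was at 266 and 10.4 RPKM as control and 1.43 and 3.4 RPKM after knockdown. Their differences were -8.37 and -2.25 for Clec10a and -6.35 and -1.80 for Tph1 against control replicates 1 and 2. Il4 (chromosome 11, 53425963 to 53432167 in mm9), the cytokine of basophils and helper T cells, was at 78.5 and 30.3 RPKM without and 10.3 and 3.74 RPKM with the knockdown. Hdc, which makes histamine, was at 902 and 150.4 RPKM as control and 32.7 and 64.2 RPKM after knockdown, and the protease gene Mcpt2 was at 34429 and 8582 RPKM without and 3726 and 3375 RPKM with the knockdown. In all of these the knockdown libraries were the lowest, and control replicate 2 lay between control replicate 1 and the knockdown.

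Pilra, an inhibitory receptor of myeloid cells, stood at 154 and 30.9 RPKM as control and 12.7 and 12.3 RPKM after knockdown. Lpxn, an adaptor of focal adhesions, stood at 43.3 and 6.93 RPKM without and 1.67 and 2.52 RPKM with the knockdown. Spink2, a protease inhibitor gene, stood at 31.96 and 3.89 RPKM as control and 0.53 and 0 RPKM after knockdown. In these 3 genes, too, control replicate 1 was the highest library. Fndc5, the precursor of irisin, was low, at 5.73 and 3.82 RPKM without and 1.1 and 1.03 RPKM with the knockdown. Gml, a membrane-anchored Ly6-type protein gene, stood at 94.6 and 27.4 RPKM as control and 11.4 and 7.37 RPKM after knockdown. Tceal9 was listed at 0 in knockdown replicate 1 and stood at 7.06 RPKM in knockdown replicate 2, against 38.03 and 30.8 RPKM in the controls. The gene models Gm5547 and Gm19705 completed the 15: Gm5547 stood at 30.6 and 10.97 RPKM without and 3.1 and 2.6 RPKM with the knockdown, and Gm19705, at 1.4 and 3.6 RPKM in the controls, was listed at 0 in both knockdown libraries. The adjusted p by limma was 0.521 for Pdia4 and 0.830 for the other 14.

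**Figure D2:**
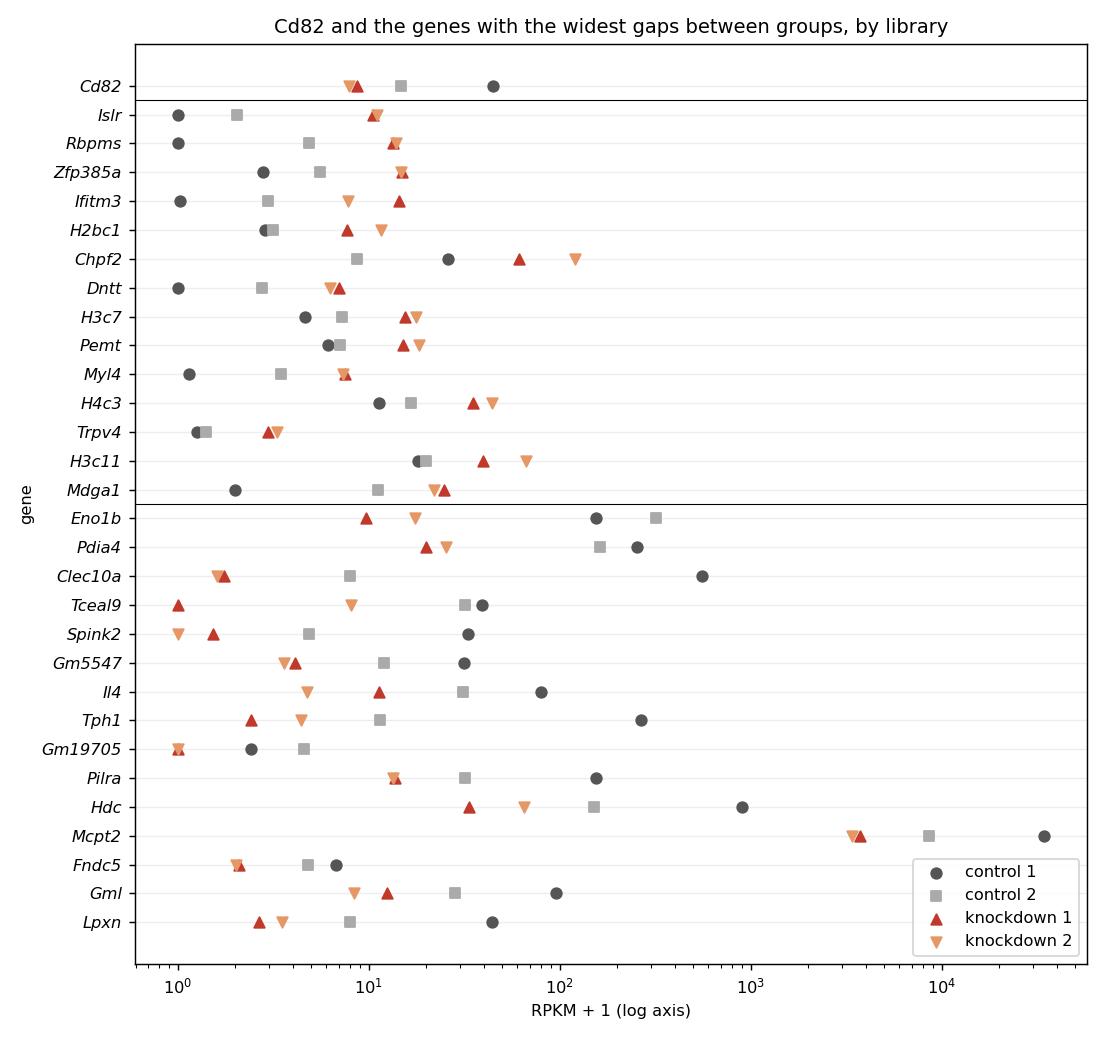
RPKM + 1 (log axis) in each library for Cd82, 14 genes with the widest gaps upward (Islr to Mdga1) and the 15 with the widest gaps downward (Eno1b to Lpxn), with 1 marker per library. Knockdown markers (triangles) lie to the right of both controls in the upper group and to the left in the lower group, and control replicate 1 is the outermost library for most genes.

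Other genes differed from the 2 controls in opposite directions, since the knockdown mean lay between them. S100a8, a calcium-binding protein of neutrophils, was at 0 and 9.41 RPKM as control and 1.53 and 2.52 RPKM after knockdown. Ly6c2, a surface protein of monocytes, was at 0.124 and 14.7 RPKM without and 4.66 and 2.53 RPKM with the knockdown. Both genes were near 0 in control replicate 1 and highest in control replicate 2. Csrp3, a muscle LIM protein gene, was at 20.6 and 102 RPKM as control and 47.8 and 51.8 RPKM after knockdown, and Fam181b at 0 and 22.9 RPKM without and 2.64 and 13.2 RPKM with the knockdown. The lens crystallin gene Cryba4 was at 20.7 and 0.341 RPKM as control and 1.71 and 1.73 RPKM after knockdown and the channel subunit gene Cacng8 at 14.6 and 0.491 RPKM without and 3.79 and 5.07 RPKM with the knockdown, both highest in control replicate 1. Omd, a matrix proteoglycan gene, was at 28.2 and 1.03 RPKM as control and 0.979 and 29.8 RPKM after knockdown, and Epc1, a subunit of a histone acetyltransferase complex, at 145 and 11.1 RPKM without and 9.49 and 87.4 RPKM with the knockdown. For these genes and for Gm1673, at 88.4 and 4.14 RPKM as control and 5.43 and 21.5 RPKM after knockdown, control replicate 1 and knockdown replicate 2 were the highest libraries, across the groups.

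Over 48 gene lists, the median difference had the same sign against both controls in 18 lists and opposite signs in 30. The lists were chosen with earlier results of these data known, and their counts are read beside the shares of all genes, 21.6% above and 17.0% below both controls. A gene that passed the filter only through 1 group, as Islr did, had to differ between groups, so these counts are descriptions. Over all genes the median difference was 0.026 against control replicate 1 and 0.033 against control replicate 2.

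**Figure D3:**
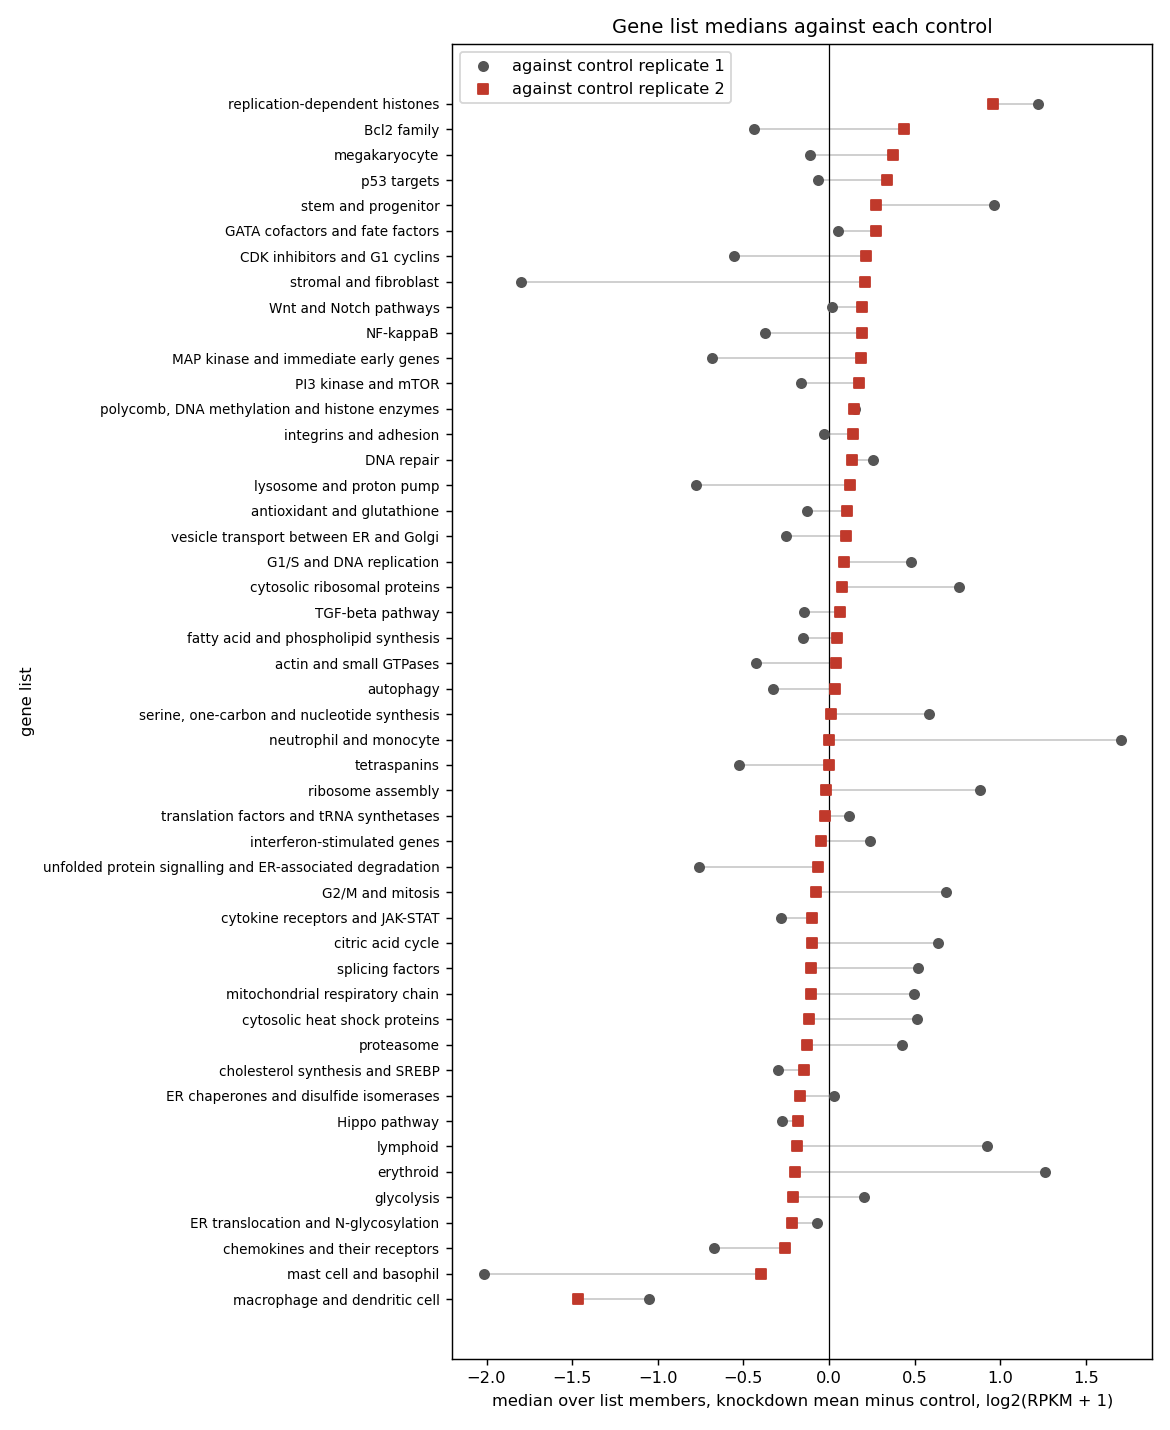
Median difference of the knockdown mean from control replicate 1 (circles) and control replicate 2 (squares) over the members of each of 48 gene lists, in log2(RPKM + 1). The histones lie to the right against both controls (1.22 and 0.96), the mast cell and basophil genes to the left against both (-2.01 and -0.40), and 30 lists have the 2 points on opposite sides of 0.

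The replication-dependent histones stood furthest to one side. These genes supply the core and linker proteins of new chromatin during S phase, and their messages end in a stem-loop in place of a poly(A) tail. Of 41 entries past the filter, 31 lay above both controls (75.6%), 1 below and 9 in neither place. The median difference was 1.22 against control replicate 1 and 0.96 against control replicate 2. Of the H3 and H4 genes, 17 of 19 lay above both controls, of the H2A and H2B genes 12 of 18, and of the H1 genes 2 of 5, with 1 entry shared by H2bc6 and H1f4 counted under both. H1f2 was the 1 gene below both controls. Near-identical copies in this family can share reads, so single members are uncertain.

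H2bc1, the H2B gene of germ cells, which is not counted in the list, was at 1.86 and 2.15 RPKM without and 6.7 and 10.5 RPKM with the knockdown. H3c7 was at 3.62 and 6.25 RPKM as control and 14.5 and 16.6 RPKM after knockdown, and H3c11 at 17.03 and 18.8 RPKM without and 38.4 and 65.6 RPKM with the knockdown. H4c3 was at 10.3 and 15.6 RPKM as control and 34.1 and 43.3 RPKM after knockdown, with differences of 1.80 and 1.25 against control replicates 1 and 2. In H2bc1 and H3c11 the controls were close to each other, so the difference was alike against both. Knockdown replicate 2 was the higher knockdown library in each of these genes. Over the list, the median level relative to each gene's own mean was -0.70 and -0.41 in the controls and 0.18 and 0.87 in the knockdown libraries. Without knockdown replicate 2 the count above both controls was 31 of 41, and without knockdown replicate 1 it was 40. A ribosomal RNA entry on chromosome 17, set apart from the genes after its values were seen, was at 7192 and 4448 RPKM in the controls, at 7101 RPKM in knockdown replicate 1 and listed at 0 in knockdown replicate 2. Its part, and that of any difference in selection of poly(A) RNA, was not tested.

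Histone genes share short promoter elements, so the 250 bases before the start are shown for those 3 of the 4 histone genes with the widest gaps that the RefSeq table (GRCm38.p6) holds, all on the minus strand of chromosome 13. Capitals mark CCAAT and TATAAA on either strand, at any place in the window. TATAAA is the sequence of the TATA box, but a match was counted whatever its distance from the start.
H4c3, chr13:23698459-23698708: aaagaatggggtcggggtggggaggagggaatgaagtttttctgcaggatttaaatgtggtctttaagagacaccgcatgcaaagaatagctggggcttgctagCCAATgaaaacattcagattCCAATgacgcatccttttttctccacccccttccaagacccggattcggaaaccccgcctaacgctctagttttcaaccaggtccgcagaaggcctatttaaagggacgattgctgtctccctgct
H3c11, chr13:21783398-21783647: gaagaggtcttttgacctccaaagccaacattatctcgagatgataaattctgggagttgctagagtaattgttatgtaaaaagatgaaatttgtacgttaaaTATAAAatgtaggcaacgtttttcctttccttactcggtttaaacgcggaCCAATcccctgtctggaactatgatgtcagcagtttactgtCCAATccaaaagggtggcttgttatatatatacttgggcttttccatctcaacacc
H2bc1, chr13:23934157-23934406: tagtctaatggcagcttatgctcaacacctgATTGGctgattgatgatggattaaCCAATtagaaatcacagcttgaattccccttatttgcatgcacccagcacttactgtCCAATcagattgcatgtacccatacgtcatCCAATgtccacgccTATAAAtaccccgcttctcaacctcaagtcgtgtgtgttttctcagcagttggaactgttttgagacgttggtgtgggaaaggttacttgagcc
H4c3 held 2 CCAAT boxes and no TATAAA, H3c11 held 2 and 1, and H2bc1 held 4 and 1. Both motifs were searched on both strands and do not overlap each other. Among 39 windows of 38 of the 42 histone genes past the filter, 33 (84.6%) held CCAAT and 20 (51.3%) TATAAA, against 33.8% and 12.4% of all 32851 windows. A neighbouring pair of divergent histone genes can share 1 stretch, so these windows are not all independent.

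Replication genes lay above both controls in 15 of 30 cases (50%) and below in none, with a median of 0.48 against control replicate 1 and 0.09 against control replicate 2. Among the licensing and helicase genes this was 8 of 12. Mcm2, a subunit of the replicative helicase, was at 55.1 and 53.8 RPKM without and 79.8 and 79.7 RPKM with the knockdown. Mcm5, another subunit, was at 42.8 and 67.98 RPKM as control and 96.5 and 94.7 RPKM after knockdown. The controls were alike for Mcm2 and apart for Mcm5. Pold1, the catalytic subunit of polymerase delta, was at 25.5 and 20.1 RPKM without and 35.1 and 35.7 RPKM with the knockdown. Uhrf1, which couples replication to DNA methylation, was at 32.6 and 36.3 RPKM as control and 54.96 and 60.3 RPKM after knockdown. The differences of these 4 genes ran from 0.45 to 1.14.

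Mitosis genes were above both controls in 8 of 24 cases (33.3%) and below in 1, with medians of opposite sign, 0.68 against control replicate 1 and -0.076 against control replicate 2. Cdc20, which activates the anaphase-promoting complex, was at 47.6 and 76.5 RPKM without and 103 and 108 RPKM with the knockdown. Hmmr, a spindle protein gene, was the 1 below, at 24.6 and 24.05 RPKM as control and 13.5 and 18.1 RPKM after knockdown. DNA repair genes were above both controls in 10 of 27 cases (37.0%) and below in 2. Parp1, which marks DNA breaks, was at 38 and 45.4 RPKM without and 63.6 and 60.1 RPKM with the knockdown, and Xpc, which recognises damage for excision repair, at 17.03 and 19.3 RPKM as control and 28.9 and 24.99 RPKM after knockdown. Of the inhibitors of cyclin-dependent kinases, cyclins and their kinases, 1 of 13 lay above both controls and 2 below. Rb1, the retinoblastoma gene, was at 8.43 and 2.94 RPKM without and 2.33 and 2.28 RPKM with the knockdown.

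Of the p53 targets, 3 of 14 lay above both controls (21.4%) and 1 below, close to the share of all genes. Pmaip1, which codes for the death protein Noxa, was at 3.73 and 5.19 RPKM as control and 9.01 and 8.11 RPKM after knockdown. In the Bcl2 family 1 of 8 lay above both controls (Bcl2) and 1 below. The latter was Mcl1, a survival gene, at 64 and 43.6 RPKM without and 35.5 and 29.6 RPKM with the knockdown.

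**Figure D4:**
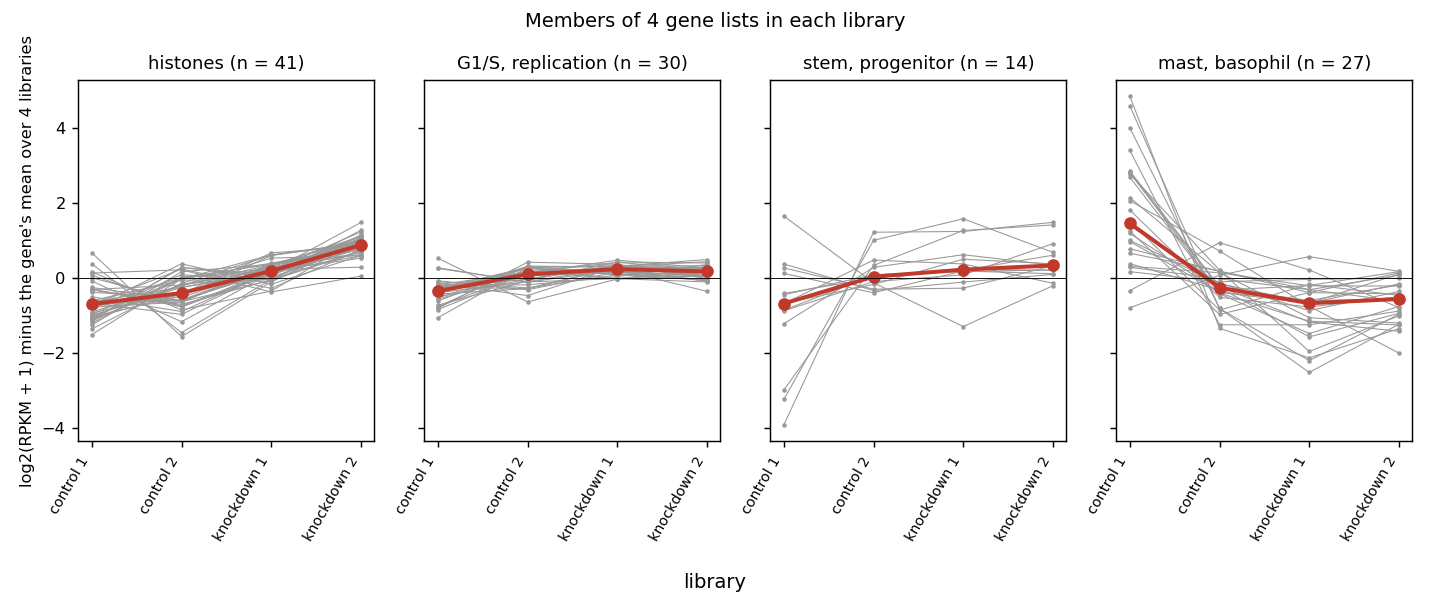
Members of 4 gene lists in each library as log2(RPKM + 1) minus the gene's mean over the 4 libraries: thin lines are genes, the thick line is the median, and the libraries on the x axis have no order within a group. Histone medians are -0.70 and -0.41 in the controls and 0.18 and 0.87 in the knockdown libraries, while the mast cell and basophil median is 1.45 in control replicate 1 and between -0.68 and -0.26 in the other 3 libraries.

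Among stem and progenitor genes, 8 of 14 past the filter lay above both controls (57.1%) and 1 below, with a median of 0.96 against control replicate 1 and 0.27 against control replicate 2. Sox4, a transcription factor of progenitors and of lymphoid cells, was at 3.44 and 43.5 RPKM as control and 84.1 and 93.2 RPKM after knockdown. Mycn, a growth regulator related to Myc, was at 0.69 and 1.41 RPKM without and 2.83 and 2.52 RPKM with the knockdown. Meis1, a homeobox factor of stem cells, was at 0.12 and 0.924 RPKM as control and 1.18 and 2.88 RPKM after knockdown, and Etv6, an Ets factor, at 15.7 and 21.2 RPKM without and 25.2 and 24.6 RPKM with the knockdown. Control replicate 1 was the lowest library in each of the 4, and control replicate 2 lay nearer to the knockdown. Among fate factors and cofactors of the GATA proteins, 7 of 21 lay above both controls (33.3%) and 2 below. Zfpm1, which binds GATA1, was at 14.2 and 15.3 RPKM as control and 29.6 and 42.3 RPKM after knockdown, with differences of 1.26 and 1.16. Lyl1, a helix-loop-helix factor of blood stem cells, was at 21.7 and 45 RPKM without and 66.6 and 89.4 RPKM with the knockdown, and Cbfa2t3, a corepressor, at 17.6 and 19.1 RPKM as control and 26.5 and 27.6 RPKM after knockdown. Spi1, which codes for the myeloid factor PU.1, overlapped between groups, at 36.4 and 16.1 RPKM without and 31.9 and 35.6 RPKM with the knockdown.

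Mast cell and basophil genes lay below both controls in 16 of 27 cases (59.3%) and above in 1, with a median of -2.02 against control replicate 1 and -0.40 against control replicate 2. For granule proteases and the granule core it was 7 of 10, for receptors and signalling 4 of 8 and for mediators and cytokines 5 of 7. Cma1, a chymase gene, was at 22312 and 2618 RPKM as control and 1364 and 1149 RPKM after knockdown. Cpa3, the mast cell carboxypeptidase, was at 6236 and 4110.3 RPKM without and 2930.1 and 2355 RPKM with the knockdown. Kit, the stem cell factor receptor, overlapped between groups, at 437 and 83.3 RPKM as control and 134 and 109.7 RPKM after knockdown. Most of the difference was thus from control replicate 1, which had the highest sum of these markers.

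Erythroid genes lay above both controls in 3 of 19 cases (15.8%) and below in 2, and their median was 1.26 against control replicate 1 and -0.20 against control replicate 2. None of the 7 globin and haem genes separated the groups. Nfe2, a factor of erythroid cells and megakaryocytes, was at 9.28 and 126 RPKM without and 131 and 133 RPKM with the knockdown, and Epor, the erythropoietin receptor, at 15.6 and 14.8 RPKM as control and 9.63 and 12.7 RPKM after knockdown. Among neutrophil and monocyte genes 1 of 8 lay above both controls and 1 below. Lyz2, lysozyme, was at 0.499 and 6.31 RPKM without and 14.7 and 10.4 RPKM with the knockdown, and Ctsg, a protease gene shared with mast cells, at 1080.4 and 643 RPKM as control and 444 and 434 RPKM after knockdown. Of the macrophage and dendritic cell list only Cd74 passed the filter, at 1.95 and 2.93 RPKM without and 0.849 and 0.0932 RPKM with the knockdown.

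Ribosomal protein genes lay above both controls in 22 of 42 cases (52.4%) and below in none. Their median was 0.76 against control replicate 1 and 0.077 against control replicate 2, so the difference from the second control was small. Rps19, a gene mutated in Diamond-Blackfan anaemia, was at 2188 and 2229 RPKM as control and 3329.9 and 3336 RPKM after knockdown. Rpl28 was at 2680.1 and 2695 RPKM without and 3715 and 4089.9 RPKM with the knockdown, and Rpsa at 835 and 1339.6 RPKM as control and 1907 and 2039 RPKM after knockdown. For Rps19 and Rpl28 the controls were alike, and for Rpsa they were not. Ribosome assembly genes were above both controls in 10 of 22 cases (45.5%) and below in none, with medians of 0.88 against control replicate 1 and -0.018 against control replicate 2. Ubtf, which opens ribosomal DNA for RNA polymerase I, was at 30.6 and 27.2 RPKM without and 42.2 and 41.7 RPKM with the knockdown.

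Translation factors and tRNA synthetases are given by role. Initiation and elongation factors were above both controls in 5 of 12 cases and below in none, with medians of 0.41 against control replicate 1 and -0.10 against control replicate 2. The tRNA synthetases were above in 2 of 18 and below in 5, with medians of -0.11 and 0.061. The order of the 2 roles by median thus turned around between the controls, and the difference between them was not tested. Eif5a was at 534 and 816 RPKM as control and 1132 and 1059 RPKM after knockdown, and Eef2, which moves the ribosome along the message, at 454 and 442 RPKM without and 566 and 637 RPKM with the knockdown. Splicing factors lay above both controls in 7 of 20 cases (35%) and below in none. Their medians had opposite signs, 0.52 against control replicate 1 and -0.10 against control replicate 2. Ptbp1, a regulator of alternative exons, was at 53.7 and 52.96 RPKM as control and 84.2 and 89.98 RPKM after knockdown, with differences of 0.69 and 0.71. Proteasome genes lay above both controls in 6 of 22 cases (27.3%) and below in none, with medians of 0.43 against control replicate 1 and -0.13 against control replicate 2. Psmb6, a catalytic subunit, was at 166 and 207 RPKM without and 286 and 289 RPKM with the knockdown.

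In the secretory pathway the counts leaned downward. Translocon, signal peptidase and signal recognition genes lay below both controls in 7 of 16 cases (43.8%) and above in 1. Spcs3, a signal peptidase subunit, was at 16.2 and 11.8 RPKM as control and 7.52 and 6.79 RPKM after knockdown. Sec63, which works with Hspa5 at the translocon, was at 10.9 and 10.4 RPKM without and 8.29 and 8.57 RPKM with the knockdown, and Ssr2, of the translocon-associated complex, was the 1 above, at 69.2 and 69.9 RPKM as control and 83.8 and 106 RPKM after knockdown. Oligosaccharyl transferase genes did not lean by this count, with 1 of 9 above and 1 below. Their median was -0.027 against control replicate 1 and -0.25 against control replicate 2, where 7 members were lower and 2 higher. Stt3a, the catalytic subunit of the transferase, was at 28.9 and 34.2 RPKM without and 22.2 and 23.9 RPKM with the knockdown. Unfolded protein signalling and ER-associated degradation genes lay below both controls in 7 of 17 cases (41.2%) and above in 2. Their median was -0.76 against control replicate 1 and -0.066 against control replicate 2, where 7 members were higher and 10 lower. Atf4, a transcription factor of the stress response, was at 658 and 535 RPKM as control and 348 and 382 RPKM after knockdown, and Derl1, which extracts misfolded proteins, at 51.4 and 41.7 RPKM without and 28.6 and 31.8 RPKM with the knockdown. Ern1, which codes for the sensor IRE1, was above, at 3.36 and 3.97 RPKM as control and 4.86 and 6.11 RPKM after knockdown.

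The coat genes of vesicles are given by direction of transport. Genes of COPI, the coat that returns vesicles to the endoplasmic reticulum, lay below both controls in 6 of 12 cases (50%) and above in 1. Their median was -0.28 against control replicate 1 and -0.032 against control replicate 2, where 6 members were higher and 6 lower. Copa, a coat subunit, was at 45.2 and 42.96 RPKM without and 38.4 and 35.2 RPKM with the knockdown, and Kdelr2, a retrieval receptor, at 23.8 and 21.8 RPKM as control and 17.7 and 16.02 RPKM after knockdown. These differences were small, -0.29 and -0.22 for Copa and -0.47 and -0.35 for Kdelr2. Genes of COPII, the export coat, were above both controls in 4 of 15 cases (26.7%) and below in 3 (20%), near the shares of all genes. Their median was -0.072 against control replicate 1 and 0.10 against control replicate 2. Sar1b, the GTPase that starts the export coat, was the furthest below, at 20.8 and 22.8 RPKM without and 9.42 and 9.37 RPKM with the knockdown. Sec24b, a cargo-binding subunit of the same coat, was above, at 7.42 and 7.79 RPKM as control and 10.04 and 10.7 RPKM after knockdown. The difference between the 2 coats was not tested.

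Lysosome and proton pump genes lay below both controls in 12 of 33 cases (36.4%) and above in 2, but their medians had opposite signs, -0.78 against control replicate 1 and 0.12 against control replicate 2. Lamp2, a membrane protein of lysosomes, was at 34.99 and 33.5 RPKM without and 22.8 and 22.8 RPKM with the knockdown, alike in the 2 controls and alike in the 2 knockdown libraries. Atp6v1e1, a subunit of the proton pump, was at 128 and 139 RPKM as control and 95.98 and 77.1 RPKM after knockdown. Ctsd, a lysosomal protease, was far higher in control replicate 1 and overlapped otherwise, at 967 and 194 RPKM without and 193 and 285 RPKM with the knockdown. Autophagy genes were split, with 4 of 20 above and 4 below. Gabarap and Gabarapl2, which coat autophagosomes, lay below: Gabarap at 306 and 259 RPKM as control and 173 and 158 RPKM after knockdown and Gabarapl2 at 44.96 and 44.7 RPKM without and 29.5 and 29.3 RPKM with the knockdown. Ulk1, the kinase that starts autophagy, lay above, at 10.02 and 10.6 RPKM as control and 15.4 and 13.7 RPKM after knockdown.

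**Figure D5:**
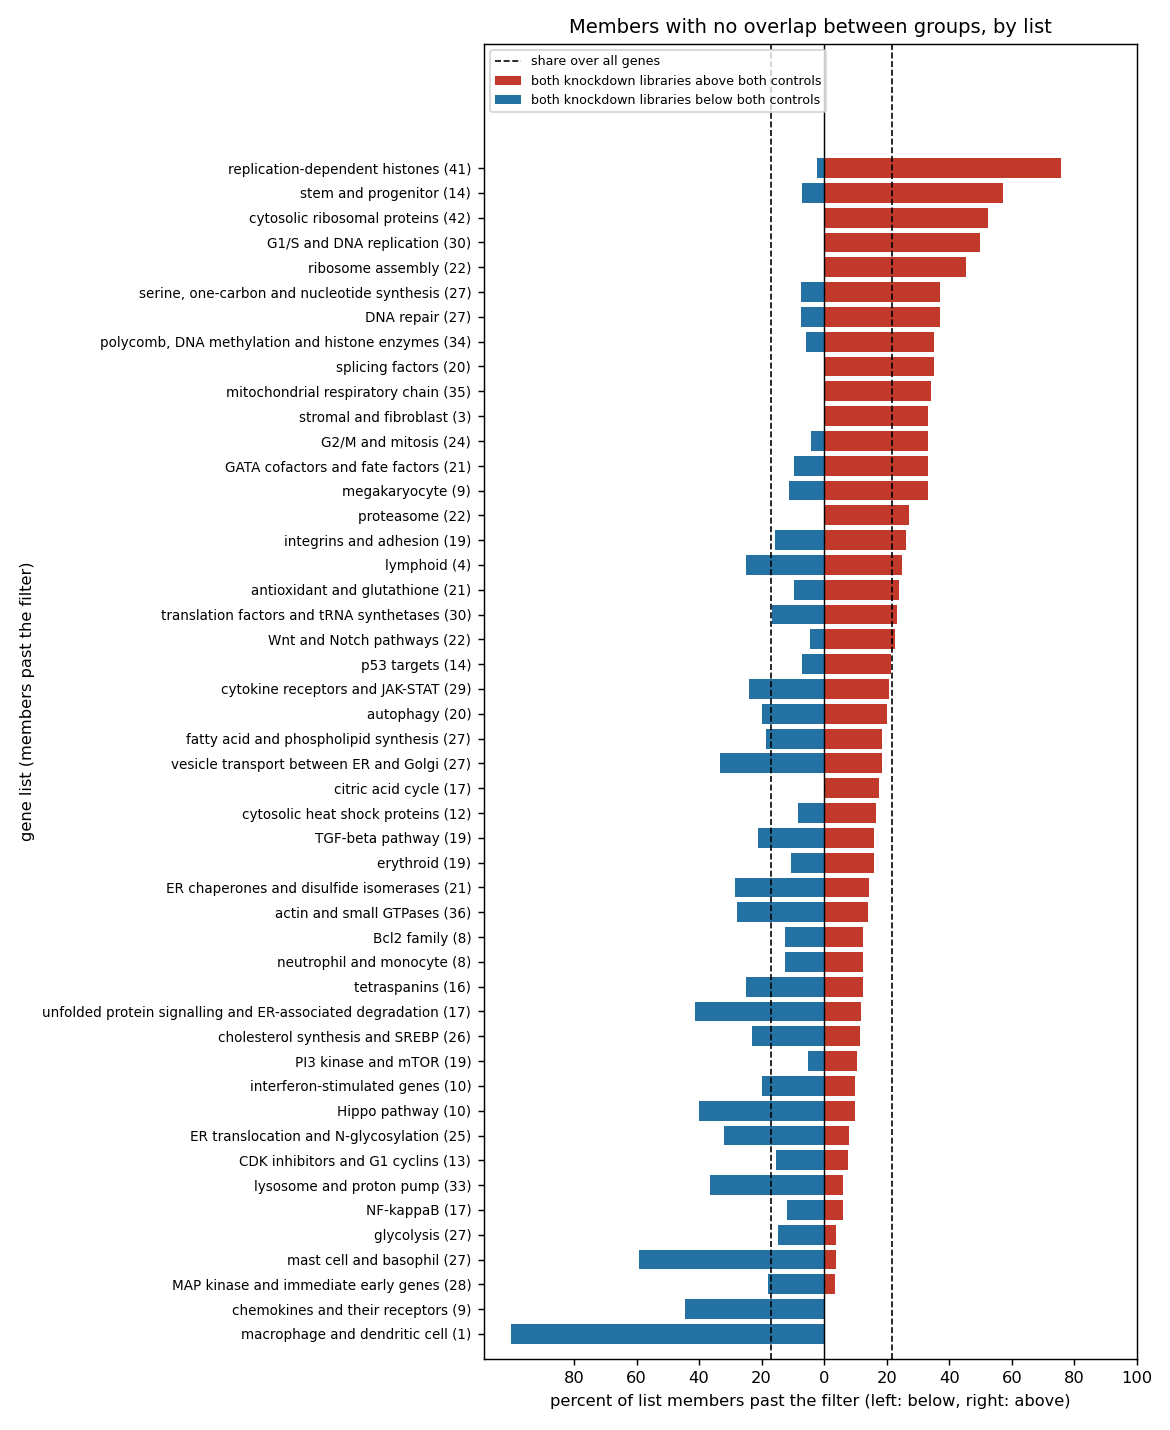
Share of each list's members past the filter (number in brackets) with both knockdown libraries above both controls (right, red) or below both (left, blue), with dashed lines at the shares of all genes (21.6% and 17.0%). The histones reach 75.6% to the right and the mast cell and basophil genes 59.3% to the left, and several lists rest on fewer than 10 members.

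In energy metabolism, respiratory chain genes lay above both controls in 12 of 35 cases (34.3%) and below in none, with medians of 0.50 against control replicate 1 and -0.11 against control replicate 2. Uqcrc1, of complex III, was at 91.2 and 68.2 RPKM without and 117 and 152 RPKM with the knockdown, and Ndufv1, of complex I, at 82.9 and 61.7 RPKM as control and 106 and 116 RPKM after knockdown. Both differed more from control replicate 2 than from control replicate 1. Citric acid cycle genes were above both controls in 3 of 17 cases and below in none. Serine, one-carbon and nucleotide genes were above in 10 of 27 cases (37.0%) and below in 2. Phgdh, the first enzyme of serine synthesis, was at 82.6 and 139 RPKM without and 206 and 191 RPKM with the knockdown, and Cad, which starts pyrimidine synthesis, at 6.93 and 7.3 RPKM as control and 10.7 and 10.4 RPKM after knockdown. Glycolysis genes, with their regulators, were above in 1 of 27 cases (Eno1) and below in 4. Pfkp, a phosphofructokinase, was at 82.2 and 34.5 RPKM without and 9.16 and 29.4 RPKM with the knockdown, and Egln1, the oxygen sensor that acts on Hif1a, at 10.5 and 10.8 RPKM as control and 2.76 and 8.83 RPKM after knockdown. In both, knockdown replicate 1 was the lowest library by far.

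Cholesterol genes lay below both controls in 6 of 26 cases (23.1%) and above in 3. Msmo1, a sterol demethylation enzyme, was at 64.7 and 82.3 RPKM without and 39.98 and 55.7 RPKM with the knockdown. Fatty acid and phospholipid genes were split evenly, 5 of 27 each way. Acsl4, which activates arachidonic acid, was at 7.14 and 3.32 RPKM as control and 2.19 and 2.09 RPKM after knockdown, and Ptdss1, which makes phosphatidylserine, at 22.1 and 15.7 RPKM without and 11.4 and 11.6 RPKM with the knockdown. Antioxidant genes were above in 5 of 21 cases and below in 2. The peroxiredoxin gene Prdx1 was below, at 194 and 226 RPKM as control and 147 and 122 RPKM after knockdown, and the glutathione peroxidase gene Gpx1 above, at 461 and 791 RPKM without and 959 and 1148 RPKM with the knockdown. Cytosolic heat shock genes stayed under the shares of all genes, with 2 of 12 above and 1 below.

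At the cell surface, 16 tetraspanins other than Cd82 passed the filter, of which 2 lay above both controls and 4 below. Cd53, a tetraspanin of white blood cells, was at 69.3 and 23.8 RPKM as control and 13.9 and 11.9 RPKM after knockdown. Cd81, a tetraspanin of many cell types, was at 73.8 and 35.5 RPKM without and 1.15 and 23.97 RPKM with the knockdown, with the knockdown libraries far apart from each other. Tspan3 lay above, at 1.53 and 3.62 RPKM as control and 6.24 and 11.8 RPKM after knockdown, and Tspan32 below, at 396 and 339.9 RPKM without and 265 and 252 RPKM with the knockdown. Integrins were split, with 2 of 12 above and 3 below, and other adhesion receptors were above in 3 of 7 cases. Icam2, a ligand of the integrin LFA-1, was at 22.1 and 37.7 RPKM as control and 61.7 and 104 RPKM after knockdown. Itgal, the alpha chain of LFA-1, was at 4.5 and 23.8 RPKM without and 31.6 and 34.6 RPKM with the knockdown. Both lay above both controls, with control replicate 1 the lowest library. Itgb1, the beta chain that many tetraspanins bind, lay below, at 44.8 and 46.9 RPKM as control and 37.8 and 37.1 RPKM after knockdown, with differences of -0.25 and -0.32.

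Small GTPases and their regulators, which set the shape of the actin skeleton, lay below both controls in 6 of 16 cases (37.5%) and above in none. Their median was -0.56 against control replicate 1 and -0.035 against control replicate 2, where 6 members were higher and 10 lower. Rock1, a kinase that drives contraction of actin fibres, was at 8.04 and 8.41 RPKM without and 4.51 and 4.41 RPKM with the knockdown. The controls were alike and the knockdown libraries were alike, and the difference was -0.73 against control replicate 1 and -0.78 against control replicate 2. Cdc42 was at 151 and 139 RPKM as control and 107 and 92.6 RPKM after knockdown, and Rac1 at 196 and 99.2 RPKM without and 83.1 and 64.6 RPKM with the knockdown. Actin assembly genes were above in 5 of 20 cases and below in 4. Arpc2, of the Arp2/3 complex, lay below, at 497 and 479.8 RPKM as control and 371 and 325 RPKM after knockdown, and Tmsb10, which binds actin monomers, above, at 994 and 911 RPKM without and 1508 and 1496 RPKM with the knockdown. Chemokines and their receptors lay below both controls in 4 of 9 cases and above in none, at low levels. Ccl3 was at 3.31 and 1.75 RPKM as control and 0.492 and 1.13 RPKM after knockdown, and Ccl4 at 2.98 and 1.23 RPKM without and 0.79 and 0.312 RPKM with the knockdown.

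Among cytokine receptors and the JAK-STAT pathway 6 of 29 lay above both controls and 7 below. Il9r, the interleukin 9 receptor, was at 1.63 and 3.79 RPKM as control and 5.96 and 5.67 RPKM after knockdown, and Csf2rb, the shared beta chain of the interleukin 3, interleukin 5 and GM-CSF receptors, at 352 and 106 RPKM without and 83.6 and 86.1 RPKM with the knockdown. Ligands, receptors and Smads of the TGF-beta pathway were split, with 3 of 11 above and 3 below. Acvr1b, an activin receptor, was at 12.8 and 22.3 RPKM as control and 34.2 and 40.9 RPKM after knockdown. Id2, a response gene of the pathway, lay below, at 379 and 92.2 RPKM without and 51.3 and 64.9 RPKM with the knockdown, with most of the difference from control replicate 1.

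Wnt genes were above both controls in 4 of 13 cases and below in none, and Notch genes in 1 of 9 each way. Lef1, a transcription factor of the Wnt pathway, was at 0.776 and 3.11 RPKM as control and 3.87 and 3.86 RPKM after knockdown. Hippo genes lay below in 4 of 10 cases and above in 1. Vgll4, which competes with YAP for TEAD factors, was the 1 above, at 4.81 and 4.98 RPKM without and 10.5 and 11.5 RPKM with the knockdown, with differences of 1.04 and 1.001. Lats2, a kinase that restrains YAP, was at 7.22 and 4.39 RPKM as control and 3.21 and 3.04 RPKM after knockdown. MAP kinase and immediate early genes were above in 1 of 28 cases and below in 5. Hras, a small GTPase at the head of the pathway, lay above, at 71.6 and 70.5 RPKM without and 95.6 and 92.3 RPKM with the knockdown. The PI3 kinase, NF-kappaB and interferon lists held few such genes, with 2 of 19, 1 of 17 and 1 of 10 above and 1, 2 and 2 below. Ifitm3 was not on the interferon list.

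Histone enzymes and chromatin remodelling genes lay above both controls in 10 of 20 cases (50%) and below in none, and their median was alike against both controls, 0.20 against control replicate 1 and 0.19 against control replicate 2. Smarca4, the motor of a remodelling complex, was at 36.1 and 27.9 RPKM as control and 43.7 and 46.2 RPKM after knockdown. Dot1l, which methylates histone H3 within its core, was at 6.5 and 4.92 RPKM without and 7.81 and 11.05 RPKM with the knockdown, and Kdm5c, a histone demethylase, at 8.01 and 7.15 RPKM as control and 9.77 and 9.58 RPKM after knockdown. Polycomb and DNA methylation genes were above in 2 of 14 cases and below in 2. Dnmt1, which copies DNA methylation after replication, was at 67.7 and 61.7 RPKM without and 89.6 and 93.4 RPKM with the knockdown. Ezh2, the polycomb methyltransferase, overlapped between groups, at 18.9 and 38.6 RPKM as control and 38.5 and 34.6 RPKM after knockdown. Each of these genes differed by less than 2-fold in RPKM + 1 from control replicate 2.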

How the data were processed

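RNA of EML cells was sequenced on the Illumina GAIIx, and 4 of the 6 libraries of the series were used. The authors deposited 1 table per library with RPKM for 23170 transcript entries, per the file headers. Per the submitters' processing notes, TopHat2 2.0.9, Bowtie and Cufflinks were used with the mouse build mm9. Strand, poly(A) selection and settings are not given in the sources used here, so overlapping and antisense genes cannot be told apart. The design had allowed for RPKM or FPKM.

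Of the entries, 24 repeated an accession and locus, which left 23146. Symbols were taken from a RefSeq table (22836) and from GENCODE (129), and 181 had none. Where the mean over the 4 libraries reached 1 RPKM, entries were fitted by limma 3.58.1 in R 4.3.3 (log2(RPKM + 1), trended variance, two-sided), 2 libraries against 2, with Benjamini-Hochberg adjustment over all 10113 entries and a threshold of 0.05. A pseudocount of 1 RPKM understates differences of low genes. The script was tested on simulated data. Groups do not overlap, or separate, when both knockdown libraries lie on one side of both controls, and the gap is the distance between the nearest libraries.

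Genes are named by a rule: Cd82, the 15 widest gaps in each direction, the 5 strongest opposite differences in each direction, and up to 4 members per list with the widest gaps or, where fewer than 2 separate, the highest mean. Eno1, Cd34, Mpo, Cpa3, Kit, Spi1, Hspa5, Copa, Ctsd, Rac1 and Ezh2 were named after their values were seen, for their place in a pathway. Some genes that the rule names are not reported here. Members and lists were chosen with earlier results of these data known. Depth was estimated from the 1-read steps of low RPKM values and GENCODE transcript lengths. In 1 of 3 cross-checks between the other libraries the strongest step stood at 0.5 of the expected ratio, and in the other two at 1.0. Alternatives were other pseudocounts, filters and scalings, a replicate block and leaving out each library.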

Additional observations from a re-analysis of the deposited data

How the results depend on the processing

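No gene past the filter was called by limma with pseudocounts of 0.1 or 5, no filter, a minimum mean of 5 RPKM, quantile normalization, median ratio scaling, small RNA entries left out, or without control replicate 1 or either knockdown library. Without control replicate 2, 1007 were called, 399 higher and 608 lower. The correlation of the deviations of same-numbered libraries was -0.178. With 2 libraries a group, of which control replicate 1 stands apart, it cannot decide whether the numbers pair the samples. The replicate block gave 0 calls and a Cd82 difference of -1.64 with an adjusted p of 0.999 by limma. The crossed pairing, chosen after seeing the data, also gave 0 calls. Leaving out 1 library at a time gave 0 to 1007 calls and a Cd82 difference from -2.44 to -0.84. It gave 102 to 1395 genes separated by 2-fold and 5482 to 8575 separated at any size, against 38 and 3854 with all 4. Leaving out a library can only keep or raise these counts. The 1395 and the 8575 came without control replicate 2, and the other runs gave at most 151 separated by 2-fold. The 2-fold count was 84 with a pseudocount of 0.1 and 12 with 5. Of counts of genes 2-fold apart, control replicate 2 against knockdown replicates 1 and 2 gave 463 and 798 with a pseudocount of 0.1 and 71 and 156 with 5, and the knockdown libraries 420 and 63, and 107 at a minimum mean of 5 RPKM. Control replicate 1 stood apart from control replicate 2 and from knockdown replicates 1 and 2 for 1200.0, 1075 and 1021 genes with a pseudocount of 5. Median ratio scaling turned the split of separated genes to 1904 above and 1906 below. Its median difference over all genes was -0.0032, against 0.029 as reported. The count of lists with medians of the same sign ran from 18 to 23. All 190 named genes that separate the groups kept their direction in every alternative run. Separation fixes that direction in advance when a library is left out or the pseudocount, filter or block is changed. Only quantile normalization and median ratio scaling could have turned it. Counts of list members depend on the libraries: without control replicate 2, 42 of 42 ribosomal protein genes and 27 of 30 replication genes lay above the remaining control, and without control replicate 1, 22 and 16. At about 20 reads per RPKM for a 2 kb transcript in the shallowest library, genes below 1 RPKM rest on few reads.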

Other observations

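Histone genes expressed outside S phase, chosen after their values were seen, were set beside the replication-dependent ones. H3f3a, a gene of the variant H3.3, was at 407 and 597 RPKM in control replicates 1 and 2 and at 546 and 554 RPKM in knockdown replicates 1 and 2, and its partner H3f3b was at 195 and 336 RPKM and then at 248 and 286 RPKM, so both overlapped between groups. H2az1, a gene of the variant H2A.Z, was at 835 and 1105 RPKM and then at 815 and 834 RPKM, a difference of -0.018 against control replicate 1 and -0.42 against control replicate 2. H2az2 was at 245 and 395 RPKM and then at 442 and 436 RPKM. H1f0, the linker histone of resting cells, was at 118 and 129 RPKM as control, at 129 RPKM in knockdown replicate 1 and at 191 RPKM in knockdown replicate 2. H2ax, which is expressed both in and outside S phase, was at 51.4 and 81.4 RPKM and then at 80.8 and 98.3 RPKM. Of replication-dependent entries, 31 of 41 lay above both controls, by a gap of any size. By that measure H2az2 (gap 0.14) and H1f0 (0.0046) also lay above both controls and H2az1 (-0.0015) below, and the others overlapped. None of these 6 genes was separated by as much as 0.2 on the log2(RPKM + 1) scale, a limit not set for the 31. The difference between the 2 kinds of histone gene was not tested.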
